A study of Mus musculus with 6 samples.

Results

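Cytotoxic granules are secretory lysosomes in which natural killer (NK) cells and other killer lymphocytes store perforin and granzymes. Serglycin binds the cargo, cathepsin C trims granzyme precursors to their active form, and a Rab GTPase, a Munc13-family factor and syntaxin carry the granule through docking, priming and fusion at the contact with a target cell. An intracellular serpin protects the killer cell from granzyme that leaks into its own cytosol. The 10 genes described here cover these steps: Srgn and Lamp1 (granule matrix and membrane), Ctsc, Ctsw and Cst7 (proteases and a protease inhibitor), Serpinb9 (self-protection), Nkg7 (granule membrane) and Rab27a, Unc13d and Stx11 (exocytosis). They were taken by gene symbol from a deposited table of raw counts. All 10 were among its 55291 symbols, and all 10 passed the filter on low counts that left 14475 genes for testing.

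The libraries came from type 1 innate lymphoid cells (ILC1s, 3 libraries) and NK cells (3 libraries), both sorted from subcutaneous tumours of wild-type C57BL/6 mice. The tumours were grown from MC38, a mouse colon carcinoma cell line, and were taken 14 days after transplantation. No other treatment or allele is given for either cell type, and the sources used here do not name the surface markers of the sort. Whether the replicates are different mice is not stated, so every p-value reflects the spread among these samples, which may be technical. ILC1s and NK cells share much of their program, but ILC1s are mostly tissue resident whereas NK cells circulate.

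The libraries held 16931099 to 20224847 counts in ILC1s and 19551574 to 19814075 in NK cells. The lowest count of any of the 10 genes was 635 (Stx11 in ILC1 replicate 2), for which counting alone gives an error of 3.97%. Levels are given in CPM, counts scaled to a common library size with TMM factors. Counts are per gene. Differences were tested with edgeR's quasi-likelihood test over all 14475 genes, as log2 fold changes of ILC1s over NK cells with a Benjamini-Hochberg adjusted threshold of 0.05.

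As summed levels, the lists of defining markers followed the labels in part. The summed level of 8 NK cell markers ran from 1001 to 1331 CPM in ILC1s and from 2463 to 3945 CPM in NK cells. That of 9 ILC1 markers, 3 of which NK cells share, ran from 1294 to 1554 CPM in ILC1s and from 1352 to 2137 CPM in NK cells. Klrb1c and Ncr1, which are in both lists, were lower in every ILC1 library than in any NK library, and Tbx21 overlapped. With these genes set aside, the remaining ILC1 markers had a higher sum in every ILC1 library than in any NK library. That choice was made with the values known. A library of each cell type stood apart from its group. The 14 macrophage and monocyte markers summed to 15102 CPM in ILC1 replicate 3, where ILC1 replicates 1 and 2 had 1038 and 936 CPM and NK libraries 1069.9 to 1295 CPM, and 13 of the 14 were higher there than in any other library. Much of the sum elsewhere was Ccr2, a chemokine receptor gene, at 506, 474 and 944 CPM in ILC1 replicates 1 to 3, against 1012, 945 and 719.7 CPM in NK replicates 1 to 3. The other 13 genes summed to 532, 462 and 14158 CPM in ILC1 replicates 1 to 3, against 283, 215 and 350.2 CPM in NK replicates 1 to 3, a split made after the values were seen. Lyz2, the macrophage lysozyme, was at 5838 CPM and Cd14 at 2562 CPM in that library. The 8 fibroblast and matrix markers summed to 757, 1144 and 40.2 CPM in ILC1 replicates 1 to 3, against 5.44, 8.06 and 649 CPM in NK replicates 1 to 3. These matrix genes were thus high in ILC1 replicates 1 and 2 and NK replicate 3, named the matrix-bearing libraries below. That grouping was drawn from the data.

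The other marker lists had lower sums. T cell markers summed to 74.3 to 208 CPM in ILC1s and 55.7 to 74.4 CPM in NK cells, dendritic cell markers to 26.7 to 38.4 CPM in ILC1s and 24.2 to 45.6 CPM in NK cells, and neutrophil markers to 21.7 to 111 CPM in ILC1s and 5.80 to 25.9 CPM in NK cells. Mast cell and basophil markers, in ILC1s mostly Kit, summed to 85.02 to 120.5 CPM in ILC1s and 91.0 to 254 CPM in NK cells. Endothelial markers summed to 171 to 216 CPM in ILC1s and 185 to 257 CPM in NK cells, nearly all of it Pecam1. Another of them, Cdh5, was at 8.46, 7.65 and 0.232 CPM in ILC1 replicates 1 to 3, against 0, 0 and 3.75 CPM in NK replicates 1 to 3. B and plasma cell markers summed to 7.01 to 16.9 CPM in ILC1s and 1.90 to 19.3 CPM in NK cells. Epithelial tumour cell markers, mostly Cdh1, summed to 106 to 382 CPM in ILC1s and 16.1 to 33.01 CPM in NK cells, and platelet markers to 6.46 to 76.9 CPM in ILC1s and 4.42 to 8.54 CPM in NK cells. Gp9, a platelet marker, was at 0 in every library, and no other defining marker was at 0 throughout.

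None of the 10 genes passed edgeR's test over all genes, which called 0.0829% of the genes tested (0.076% higher and 0.00691% lower). At an unadjusted p under 0.05 there were 5, Lamp1 with a higher level in ILC1s and Nkg7, Unc13d, Ctsw and Stx11 with lower ones, where 6.95% of all genes tested were higher and 8.82% lower at that limit, 15.8% together. DESeq2 called Nkg7 and Unc13d lower, where it called 2.94% of all genes tested higher and 4.03% lower. Limma-voom called none of the 10, with 0.111% of genes higher and 0.0138% lower. Without ILC1 replicate 3 edgeR also called none of them, with 0.0729% of genes in each direction. For the same 5 genes, CPM ranges of the cell types were separate. Among all genes tested, 12.5% were higher without overlap and 13.3% lower, 25.8% together. The median log2 fold change was -0.20 over the 10 genes and 0.081 over all genes tested. Their patterns fell into 3 sets: genes at a lower level in every ILC1 library, genes whose ILC1 mean was raised by replicate 3, and genes at a similar mean in both cell types. Serpinb9 lay between the first set and the last. In bulk samples, fewer cells that express a gene and less of its RNA per cell cannot be told apart.

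**Figure D1:**
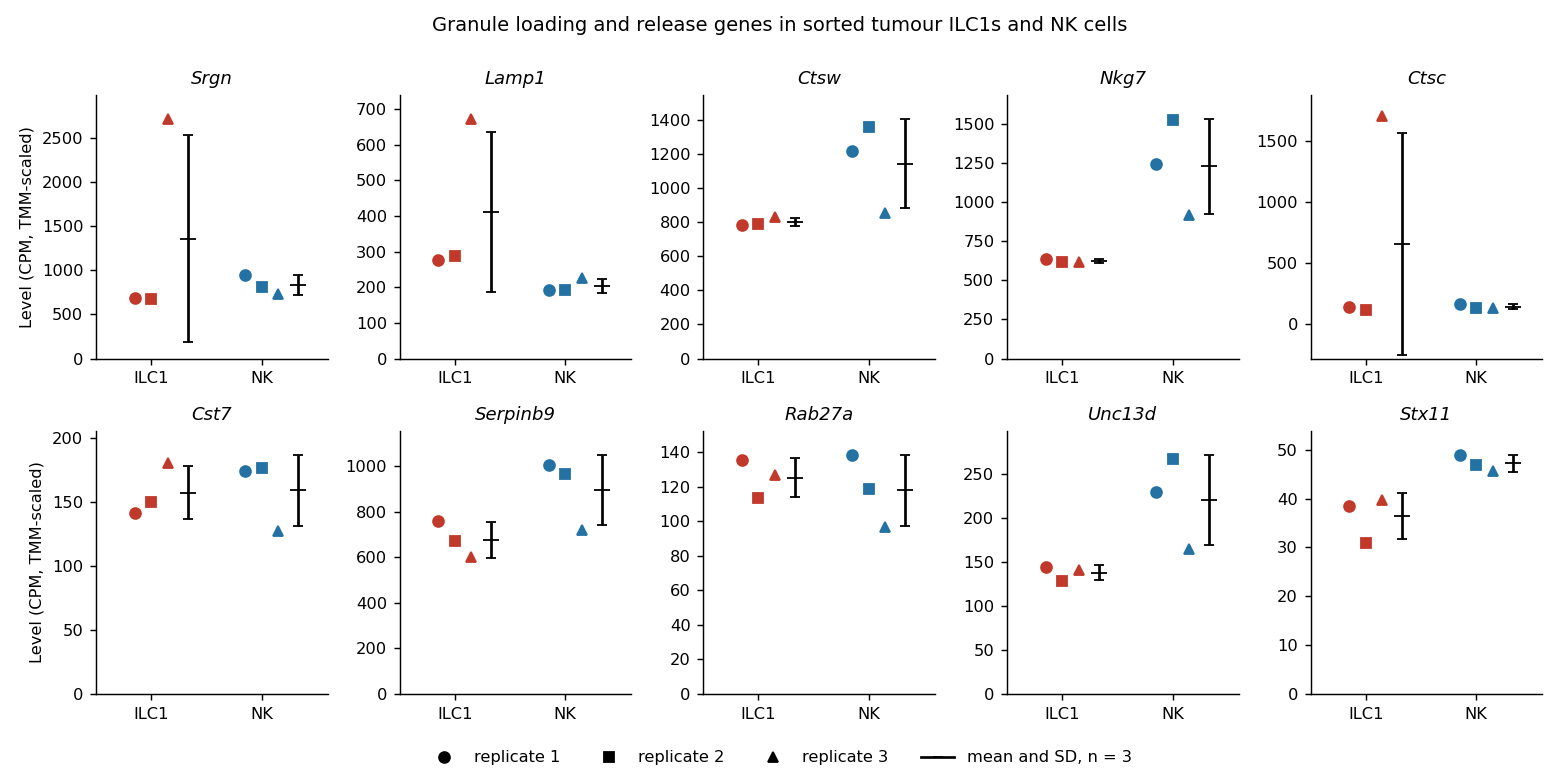
Levels (CPM over TMM-scaled library sizes, linear axes) of the 10 granule genes in the 3 ILC1 and 3 NK libraries, with the mean and SD of each cell type beside the points. Nkg7 lay at 616 to 637 CPM in ILC1s, below every NK library, and the high points of Srgn, Lamp1 and Ctsc are all ILC1 replicate 3. The SD bar of Ctsc in ILC1s runs below 0 because the SD exceeds the mean.

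Nkg7 encodes a small membrane protein of cytotoxic granules that mouse lymphocytes need for full degranulation. It was at 637, 616 and 616 CPM in ILC1 replicates 1 to 3, against 1240.2, 1522 and 919 CPM in NK replicates 1 to 3. The ILC1 libraries were close to one another and all lay below the lowest NK library, which was the one with matrix genes. Nkg7 averaged 623 ± 12.3 CPM in ILC1s, against 1227 ± 302 CPM in the NK libraries (SD, n = 3 each), so the ILC1 mean was 0.508 of the NK mean. The log2 fold change was -0.98 ± 0.21 (SE), with an edgeR adjusted p of 0.144 and a DESeq2 adjusted p of 0.00054, and over 15 alternatives the adjusted p ran from 0.00054 to 0.454. Within the 3 matrix-bearing libraries alone, where the spread comes from ILC1 replicates 1 and 2 only and a lone NK library is assumed to vary like them, it was -0.59 with an edgeR adjusted p of 0.048. In that fit 6.13% of all genes tested were called higher and 6% lower. Without NK replicate 3 it was -1.14, with an edgeR adjusted p of 0.0372, where 1.67% of genes were called higher and 1.33% lower.

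The Nkg7 gene lies at chr7:43437073-43438249 on GRCm38 (forward strand, protein coding). The bases before its start are shown because Nkg7 had the lowest fold change of the 10, and transcription factors of the T-box (T-bet, Eomes) and RUNX families are known to act in both cell types. Promoter windows of 250 bases before the RefSeq start were searched on both strands for GGTGTG (T-box), TGTGGT (RUNX), GAGGAA (PU.1, a macrophage factor) and CACGTG (the E-box of TFEB and other lysosome regulators). These words were found in 16.3%, 14.0%, 23.3% and 6.02% of all 32851 promoter windows. The stretch from chr7:43436888-43437072 (forward strand, RefSeq, GRCm38.p6), which ends before the GENCODE start, holds a RUNX word on the reverse strand, in capitals.
Nkg7 promoter: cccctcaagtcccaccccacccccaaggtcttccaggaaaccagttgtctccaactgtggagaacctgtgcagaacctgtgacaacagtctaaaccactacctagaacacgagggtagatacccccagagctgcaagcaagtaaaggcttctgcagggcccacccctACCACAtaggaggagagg
A T-box word lay between the GENCODE start and the RefSeq start. Such matches describe letters in a window and no binding was measured. Of the other members with a RefSeq promoter, Rab27a, Stx11, Ctsc and Serpinb9 held a T-box word and Cst7, Lamp1, Rab27a and Srgn a RUNX word. Rab27a and Srgn had a pair of starts each, and Ctsw and Unc13d had no entry.

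Unc13d encodes the Munc13-family factor that primes docked granules for fusion, and its loss in humans causes a form of haemophagocytic lymphohistiocytosis. It was at 145, 128 and 141 CPM in ILC1 replicates 1 to 3, against 229, 267 and 165 CPM in NK replicates 1 to 3. All ILC1 libraries lay below all NK libraries, and NK replicate 3 was again the nearest. The means were 138 ± 8.67 CPM in ILC1s, against 220.2 ± 51.5 CPM in the NK libraries (SD, n = 3 each). The fitted log2 difference was -0.68 ± 0.20 (SE; edgeR adjusted p = 0.226, DESeq2 adjusted p = 0.047, with a range of 0.047 to 0.717 over the 15 alternatives), and -0.32 within the matrix-bearing libraries.

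Stx11 encodes the syntaxin of the granule fusion step, another gene of familial haemophagocytic lymphohistiocytosis in humans. It had the lowest level of the 10 per kilobase. It was at 38.6, 30.9 and 39.6 CPM in ILC1 replicates 1 to 3, against 49.0, 46.9 and 45.7 CPM in NK replicates 1 to 3. The groups did not overlap, and NK replicate 3 stood with the other NK libraries here. Its log2 fold change was -0.38 ± 0.14 (SE, edgeR adjusted p = 0.297), and it was -0.44 within the matrix-bearing libraries.

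Rab27a encodes the GTPase that tethers granules at the plasma membrane. It was at 136, 113 and 127 CPM in ILC1 replicates 1 to 3, against 138, 119 and 96.9 CPM in NK replicates 1 to 3. The groups overlapped, with means of 125 ± 11.2 CPM in ILC1s, against 118 ± 20.7 CPM in the NK libraries. ILC1s over NK cells gave a log2 fold change of 0.088 ± 0.17 (SE, edgeR adjusted p = 0.806), which does not show that the levels were equal. The 3 exocytosis genes therefore did not share a pattern: Unc13d and Stx11 were lower without overlap and Rab27a overlapped.

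Ctsw encodes cathepsin W, a papain-like cysteine protease found mainly in NK cells and cytotoxic T cells. It was at 779.9, 790.4 and 826 CPM in ILC1 replicates 1 to 3, against 1213, 1359 and 855 CPM in NK replicates 1 to 3. The groups did not overlap, but the gap between ILC1 replicate 3 and NK replicate 3 was small. The means were 799 ± 24.2 CPM in ILC1s, against 1142 ± 259 CPM in the NK libraries (SD, n = 3 each). The log2 fold change was -0.52 ± 0.20 (SE, edgeR adjusted p = 0.301), and -0.16 within the matrix-bearing libraries.

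Serpinb9 encodes the intracellular inhibitor of granzyme B. It was at 759, 672 and 602 CPM in ILC1 replicates 1 to 3, against 1004, 966 and 721 CPM in NK replicates 1 to 3. The groups overlapped, because ILC1 replicate 1 lay above NK replicate 3. The fitted log2 difference was -0.40 ± 0.18 (SE, edgeR adjusted p = 0.349), and -0.052 within the matrix-bearing libraries.

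Nkg7, Unc13d, Ctsw and Serpinb9 varied together across libraries. For Nkg7 the coefficient of variation was 1.97% among ILC1 libraries and 24.6% among NK libraries. The mean of NK replicates 1 and 2 over the level in NK replicate 3 was 1.50 for Nkg7, 1.50 for Unc13d, 1.50 for Ctsw and 1.37 for Serpinb9, against 1.05 for Stx11. NK replicate 3 also had a lower sum of the 8 NK cell markers, 2463 CPM, where NK replicates 1 and 2 had 3945 and 3855 CPM. Across genes, its log2 CPM correlated at 0.977 and 0.971 with ILC1 replicates 1 and 2 and at 0.880 with each of the other NK libraries. The part of the matrix genes or of these differences in the result was not tested. Pearson correlations of log2 CPM over the 6 libraries, which share cell type and library set, were 0.982 for Nkg7 with Unc13d and 0.979 for Ctsw with Unc13d. Among 8858 other genes with at least 10 CPM, those most like Nkg7 over the 6 libraries were Vopp1 (r = 0.998) and Ssbp2 (r = 0.997), and those most like Unc13d were Mxd4 (r = 0.998) and Rapgef1 (r = 0.996). These are the highest of all candidates over few libraries, and they are given as a description.

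**Figure D2:**
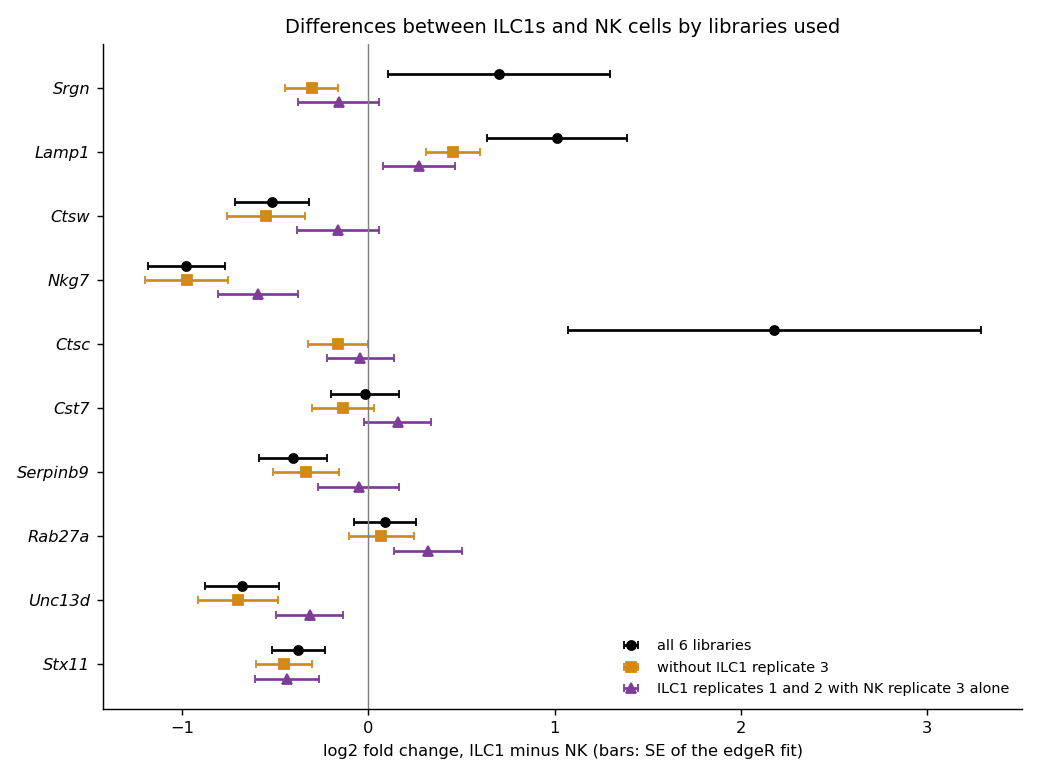
Log2 fold changes of ILC1s over NK cells for the 10 genes, with the SE of the edgeR fit as bars, from all 6 libraries (circles), without ILC1 replicate 3 (squares) and from ILC1 replicates 1 and 2 with NK replicate 3 alone (triangles). Ctsc and Srgn change sign without ILC1 replicate 3, while Nkg7 stays at -0.98 and is at -0.59 in the 3 matrix-bearing libraries.

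The ILC1 means of Srgn, Lamp1 and Ctsc were raised by replicate 3. Srgn encodes serglycin, the proteoglycan core that holds granzymes and perforin in the granule, and is also made by macrophages and mast cells. It was at 683, 673 and 2712 CPM in ILC1 replicates 1 to 3, against 949.6, 813 and 735 CPM in NK replicates 1 to 3. ILC1 replicates 1 and 2 lay below all NK libraries and ILC1 replicate 3 far above them. Its log2 fold change was 0.70 ± 0.60 (SE, edgeR adjusted p = 0.609) with all libraries and -0.30 without ILC1 replicate 3.

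Ctsc encodes cathepsin C, the dipeptidyl peptidase that activates granzymes and, in myeloid cells, neutrophil and mast cell serine proteases. It was at 140.1, 119 and 1703 CPM in ILC1 replicates 1 to 3, against 169.5, 134 and 129.8 CPM in NK replicates 1 to 3. The level in ILC1 replicate 3 was 13.1 times the mean of the other ILC1 libraries, where the macrophage and monocyte markers were 28.1 times as high in the median. ILC1s over NK cells gave a log2 fold change of 2.18 ± 1.11 (SE, edgeR adjusted p = 0.398) with all libraries and -0.16 without ILC1 replicate 3, and DESeq2 gave no adjusted p. The gene with the pattern most like it over the 6 libraries was Ctss (r = 0.997), the cathepsin S gene of antigen-presenting cells, at 103, 98.4 and 2390 CPM in ILC1 replicates 1 to 3 and 101 to 119 CPM in NK cells. The Ctsc gene lies at chr7:88278085-88310888 (GRCm38, forward strand). The stretch before its start, chr7:88277835-88278084 (forward strand, RefSeq, GRCm38.p6), is shown because it held a pair of PU.1 words and a T-box word, all on the reverse strand, in capitals.
Ctsc promoter: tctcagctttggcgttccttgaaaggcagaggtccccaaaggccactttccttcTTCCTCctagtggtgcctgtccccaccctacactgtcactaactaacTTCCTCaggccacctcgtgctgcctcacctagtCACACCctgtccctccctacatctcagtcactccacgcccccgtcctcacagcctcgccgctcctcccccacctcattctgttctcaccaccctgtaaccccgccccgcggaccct
It was the only promoter window of the 10 searched for these genes with a PU.1 word, where 23.3% of all 32851 windows held one.

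Lamp1 encodes an abundant membrane glycoprotein of lysosomes, whose appearance at the cell surface is the usual sign of degranulation. It was at 275, 289 and 672 CPM in ILC1 replicates 1 to 3, against 192, 192 and 227 CPM in NK replicates 1 to 3. All ILC1 libraries lay above all NK libraries, and ILC1 replicate 3 was 2.38 times the mean of the other ILC1 libraries. The log2 fold change was 1.02 ± 0.38 (SE, edgeR adjusted p = 0.291) with all libraries, 0.45 without ILC1 replicate 3 and 0.27 within the matrix-bearing libraries. The genes most like Lamp1 over the 6 libraries were Lgals3 (r = 0.999), the galectin 3 gene, and H2-Ab1 (r = 0.998), an MHC class II gene. Lamp1 lies at chr8:13159161-13175338 (GRCm38, forward strand) and overlaps Grtp1 on the opposite strand. The strand setting of the counting is not given in the sources used here, so reads of the pair may be mixed. The stretch chr8:13158911-13159160 (forward strand, RefSeq, GRCm38.p6) is shown for its 4 E-box words, the core of the site through which TFEB is known to drive lysosome genes. Capitals mark these and a RUNX word on the reverse strand that directly follows the third of them.
Lamp1 promoter: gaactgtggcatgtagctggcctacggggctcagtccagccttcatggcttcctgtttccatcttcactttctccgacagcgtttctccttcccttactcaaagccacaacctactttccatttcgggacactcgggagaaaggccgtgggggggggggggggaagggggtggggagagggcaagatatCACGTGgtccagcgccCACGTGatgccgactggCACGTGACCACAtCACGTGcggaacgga
The other E-box word among the members lay in the second Rab27a promoter.

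Macrophage markers were highest in the library where these 3 genes were high, and 6 of 8 T cell markers were highest there too, with a sum of 208 CPM. So were 5 of 8 dendritic cell markers, though their sum of 38.4 CPM was below the 44.7 and 45.6 CPM of NK replicates 1 and 2. The neutrophil, epithelial and platelet sums were also highest in that library, but only 2 genes of each list were. The epithelial sum was nearly all Cdh1 (377 of 382 CPM), the neutrophil sum mostly Mmp8 (58.1 CPM) and Csf3r (44.9 CPM), and S100a9 was at 2.96 CPM there, where ILC1 replicates 1 and 2 had 8.24 and 10.04 CPM. The part of any of these in the result was not tested. The levels of Lamp1, Srgn and Ctsc in ILC1 replicate 3 were 2.38, 3.999 and 13.1 times those in the other ILC1 libraries, while the other 7 genes stood at 0.841 (Serpinb9) to 1.24 (Cst7) times.

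**Figure D3:**
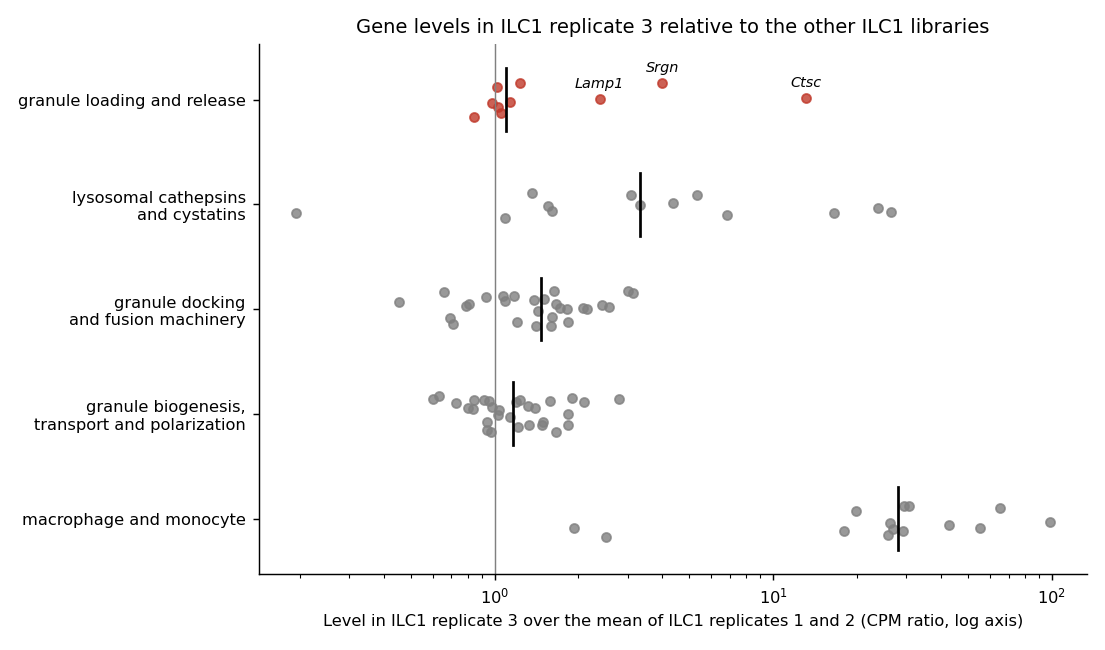
Level in ILC1 replicate 3 over the mean of ILC1 replicates 1 and 2 (CPM ratio, log axis) for genes of 5 lists with at least 1 CPM in those libraries, with the list median as a bar. Of the 10 granule genes only Lamp1, Srgn and Ctsc lay above 2, while the macrophage and monocyte markers had a median of 28.1.

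Cst7 encodes cystatin F, an inhibitor that is carried to granules and acts on cathepsin C. It was at 142, 150.0 and 181 CPM in ILC1 replicates 1 to 3, against 174, 177 and 127 CPM in NK replicates 1 to 3. The groups overlapped, with means of 158 ± 20.5 CPM in ILC1s, against 159 ± 27.9 CPM in the NK libraries (SD, n = 3 each). The fitted log2 difference was -0.016 ± 0.18 (SE, edgeR adjusted p = 0.971), and its sign changed under 7 of 15 alternatives. The inhibitor can also be set against its target within each library, where scaling cancels. The ratio of Cst7 to Ctsc counts was 1.01, 1.26 and 0.106 in ILC1 replicates 1 to 3, against 1.03, 1.32 and 0.979 in NK replicates 1 to 3. ILC1 replicates 1 and 2 lay within the NK range and ILC1 replicate 3 far below it.

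The ratio of Serpinb9 to Gzmb counts sets the inhibitor against the granzyme it blocks. It was 0.311, 0.265 and 0.278 in ILC1 replicates 1 to 3, against 0.339, 0.375 and 0.350 in NK replicates 1 to 3. Every ILC1 library lay below every NK library, with means of 0.285 ± 0.024 in ILC1s and 0.355 ± 0.018 in NK cells (SD, n = 3 each). A two-sided exact permutation test gave p = 0.1, the smallest that 3 against 3 libraries allow. The same permutation test gave p = 0.5 for the ratio of Cst7 to Ctsc. Gzmb itself was at 2440 to 2538 CPM in ILC1 replicates 1 and 2 and 2164 CPM in ILC1 replicate 3, against 2062 to 2959 CPM in NK cells. The ratio of Nkg7 to Gzmb counts, added after the values were seen, was 0.263 ± 0.021 in ILC1s and 0.485 ± 0.092 in NK cells, again without overlap. That of Srgn to Gzmb counts overlapped, at 0.280, 0.265 and 1.25 in ILC1 replicates 1 to 3, against 0.321, 0.316 and 0.357 in NK replicates 1 to 3. Counts of different genes are not corrected for length, so these ratios compare libraries and not genes.

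**Figure D4:**
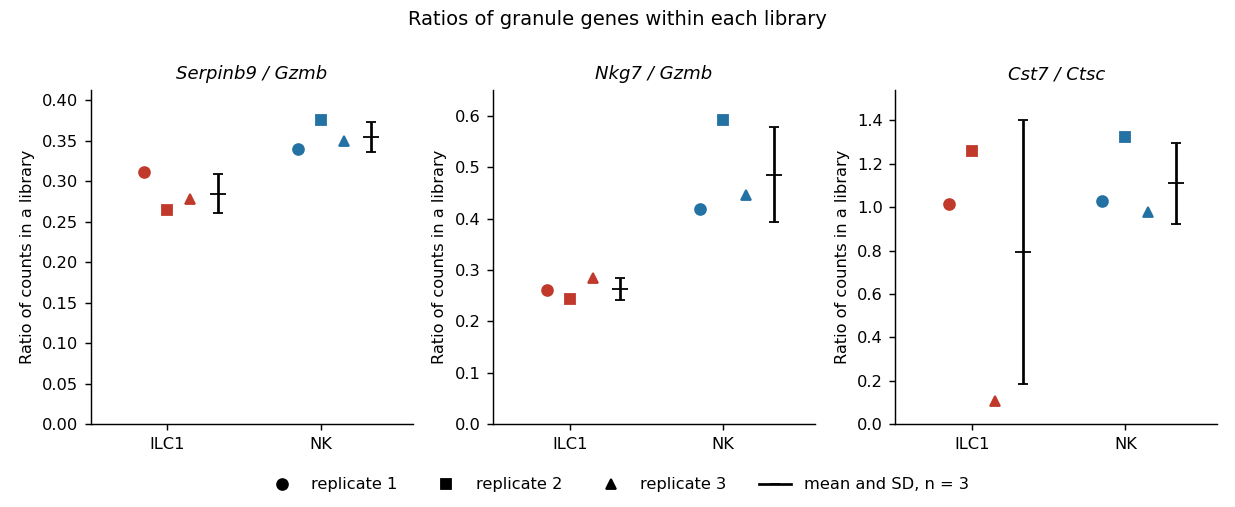
Ratios of counts within each library for Serpinb9 over Gzmb, Nkg7 over Gzmb and Cst7 over Ctsc, with ILC1 and NK libraries as points and the mean and SD (n = 3) beside them. The first ratio averaged 0.285 in ILC1s and 0.355 in NK cells without overlap, and ILC1 replicate 3 falls out of the third at 0.106.

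Per kilobase of annotated exon, Nkg7 had the highest mean level of the 10 in both cell types. In ILC1s it was at 682 ± 13.4 CPM per kilobase, followed by Srgn at 618 ± 535, Ctsw at 423 ± 12.8 and Serpinb9 at 194 ± 22.5. In NK cells Nkg7 was at 1342 ± 330.2 CPM per kilobase, followed by Ctsw at 605 ± 138, Srgn at 379 ± 49.4 and Serpinb9 at 257 ± 44.0. In ILC1s the steps from Nkg7 to Srgn and from Srgn to Ctsw were within the larger SD, as were those from Cst7 to Lamp1, Lamp1 to Ctsc and Ctsc to Rab27a, whereas each step of the NK order exceeded it. The exocytosis genes stood at the low end, with Rab27a at 32.3 ± 2.88, Unc13d at 29.4 ± 1.85 and Stx11 at 8.64 ± 1.13 CPM per kilobase in ILC1s. In NK cells Unc13d was at 47.1 ± 11.01, Rab27a at 30.4 ± 5.34 and Stx11 at 11.2 ± 0.398 CPM per kilobase.

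Of 28 other tested genes of the docking and fusion machinery, 0 passed edgeR's test. There were 1 higher and 5 lower by unadjusted p under 0.05, and DESeq2 called 4 lower and limma-voom 0. Among all genes tested, 6.95% were higher and 8.82% lower by unadjusted p, and DESeq2 called 2.94% higher and 4.03% lower. Limma-voom called 0.111% higher and 0.0138% lower. The counts of the lists that follow stand beside the same shares. The list median was 0.036, and -0.21 without ILC1 replicate 3, beside 0.081 and 0.039 for all genes. Baiap3, a Munc13-related gene, had 30.5 ± 12.3 CPM in ILC1s, against 128 ± 26.2 CPM in the NK libraries (log2 fold change -2.07 ± 0.36, edgeR adjusted p = 0.114). Sytl3, a synaptotagmin-like Rab27 effector, had 46.2 ± 10.1 CPM in ILC1s, against 106 ± 28.5 CPM in the NK libraries (-1.20 ± 0.27, edgeR adjusted p = 0.156). Rab37, a GTPase of secretory granules, had 57.6 ± 2.40 CPM in ILC1s, against 119 ± 24.5 CPM in the NK libraries, and the SNARE gene Vamp2 had 66.1 ± 7.91 CPM in ILC1s, against 93.8 ± 6.25 CPM in the NK libraries. DESeq2 called these 4 genes lower.

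Granule biogenesis, transport and polarization genes had 15 of 31 positive and 16 negative fold changes, beside 8110 positive and 6365 negative among all genes tested. None passed edgeR's test (3 higher and 5 lower by unadjusted p under 0.05, and DESeq2 called 1 higher and 3 lower, limma-voom 0), and the median was -0.0015, and -0.16 without ILC1 replicate 3. Lyst, the lysosomal trafficking regulator mutated in Chediak-Higashi syndrome in humans, had 66.0 ± 15.4 CPM in ILC1s, against 114 ± 15.1 CPM in the NK libraries (log2 fold change -0.79 ± 0.21, edgeR adjusted p = 0.190). Vps16, a subunit of lysosomal tethering complexes, had 78.3 ± 3.76 CPM in ILC1s, against 109 ± 6.03 CPM in the NK libraries. Wipf1, the partner of the Wiskott-Aldrich protein, had 294 ± 14.6 CPM in ILC1s, against 386 ± 24.6 CPM in the NK libraries, and Vps33b had 29.0 ± 3.29 CPM in ILC1s, against 39.9 ± 4.53 CPM in the NK libraries.

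Lysosomal cathepsins and cystatins other than the members had a median log2 fold change of 1.57 over 15 tested genes and of 0.385 without ILC1 replicate 3. None passed edgeR's test (5 higher and 2 lower by unadjusted p under 0.05, and DESeq2 called 3 higher and 1 lower, limma-voom 0). Ctsh, the cathepsin H gene, was at 17.2, 16.4 and 445 CPM in ILC1 replicates 1 to 3, against 3.85, 3.903 and 10.5 CPM in NK replicates 1 to 3. The cystatin gene Cst3 was at 122, 153 and 733 CPM in ILC1 replicates 1 to 3, against 80.3, 70.9 and 74.5 CPM in NK replicates 1 to 3. Cstb, which encodes cystatin B, averaged 124 ± 94.7 CPM in ILC1s, against 41.8 ± 9.63 CPM in the NK libraries. Ctse averaged 18.5 ± 3.63 CPM in ILC1s, against 30.8 ± 6.52 CPM in the NK libraries.

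Of the intracellular serpins, 7 of 14 were tested and none passed edgeR's test (1 higher and 2 lower by unadjusted p under 0.05, and DESeq2 called 1 lower, limma-voom 0). The median was 1.079, and -0.15 without ILC1 replicate 3. Serpinb9b, which shares some read-length sequence with Serpinb9, had 20.3 ± 11.5 CPM in ILC1s, against 83.3 ± 15.1 CPM in the NK libraries (log2 fold change -2.04 ± 0.53, edgeR adjusted p = 0.194). Serpinb6b had 359 ± 55.1 CPM in ILC1s, against 541 ± 91.7 CPM in the NK libraries, Serpinb1a had 21.3 ± 6.52 CPM in ILC1s, against 8.98 ± 3.66 CPM in the NK libraries, and Serpinb8 had 5.22 ± 2.03 CPM in ILC1s, against 2.47 ± 1.06 CPM in the NK libraries.

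Granule cargo was the list with calls. Gzmc, Gzme and Gzmg rose in ILC1s, 3 of 10 tested genes, where edgeR called 0.0829% of all genes tested. Their log2 fold changes were 3.91 ± 0.23, 5.71 ± 0.43 and 7.03 ± 0.63 (SE, edgeR adjusted p = 0.0174, 0.0349 and 0.0447). Gzmf had 326 ± 194 CPM in ILC1s, against 8.19 ± 2.09 CPM in the NK libraries without passing (edgeR adjusted p = 0.0579). None of the 10 passed when replicate 1 or 2 of either cell type was left out, or with a replicate block. The granzyme genes are similar in sequence, so the split of 50-base reads among them is uncertain. At an unadjusted p under 0.05, 5 cargo genes were higher and 4 lower, limma-voom called 4 higher, and by DESeq2 there were 5 higher and 2 lower. The 4 lower genes, named after their values were seen, were Gzma, Prf1, Gzmk and Gzmm, and DESeq2 called Gzma and Gzmk. Gzma averaged 715 CPM in ILC1s, against 3569 CPM in the NK libraries, and the perforin gene Prf1 936 against 1526 CPM, both without overlap.

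**Figure D5:**
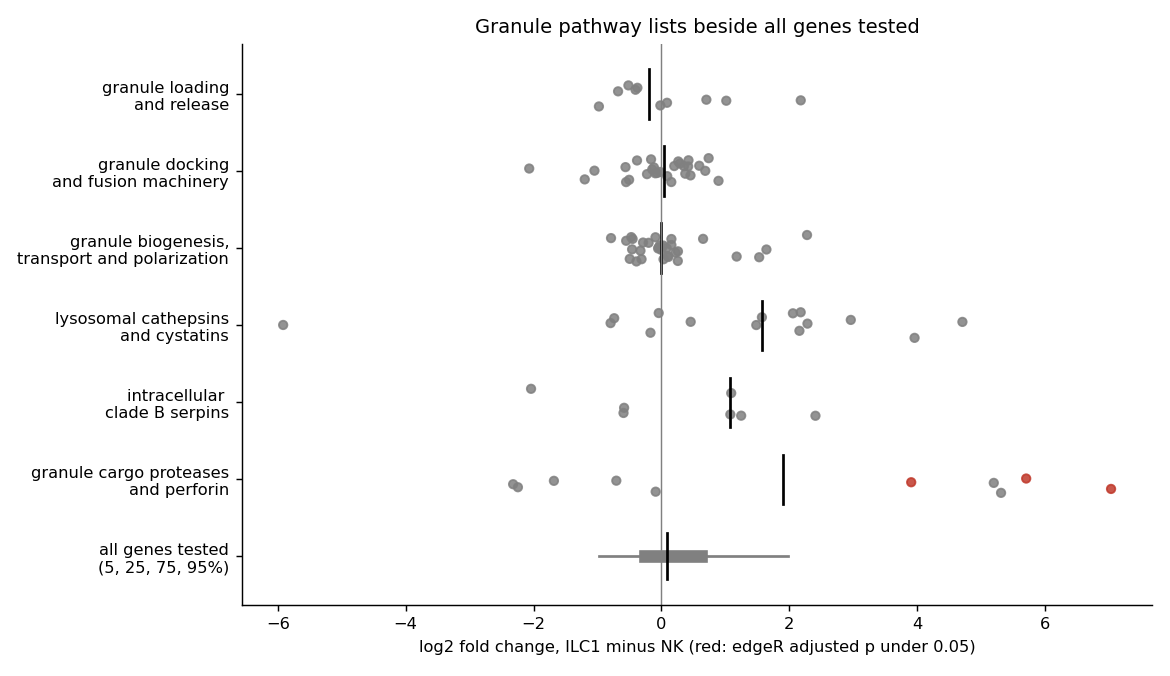
Log2 fold changes of ILC1s over NK cells for tested genes of the 10 members and 5 granule pathway lists, with the list median as a bar, red for genes past edgeR's adjusted p of 0.05, and the 5, 25, 75 and 95% points of all 14475 genes at the bottom. Only Gzmc, Gzme and Gzmg are red, and the members lie between -0.98 (Nkg7) and 2.18 (Ctsc).

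The member genes were largely distinguishable by reads of 50 bases. Of all windows of that length in their GENCODE M21 transcripts, the share also found in transcripts of another gene was 0% for Srgn, Ctsw, Cst7 and Nkg7. It was 0.378% for Serpinb9 (shared with Serpinb9b), 0.442% for Stx11, 0.482% for Ctsc, 2.62% for Unc13d, 3.59% for Rab27a and 5.90% for Lamp1 (shared with Grtp1). Ctsw (chr19:5465043-5468507, reverse strand) overlaps Fibp on the opposite strand and Ctsc overlaps the non-coding Gm26522 on the opposite strand. Rab27a (chr9:73044854-73097629, forward strand) overlaps the processed pseudogene Gm27186. Srgn (chr10:62493833-62527451, reverse), Stx11 (chr10:12938209-12964298, reverse), Unc13d (chr11:116062095-116077961, reverse), Cst7 (chr2:150570415-150578944, forward) and Serpinb9 (chr13:33003250-33017957, forward) overlap no other annotated gene, nor does Nkg7.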

How the data were processed

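RNA of 3 ILC1 and 3 NK cell samples was selected with oligo(dT) beads, reverse transcribed from random hexamers and sequenced as single-end reads of 50 bases, per the labels' protocols. The authors deposited raw counts per gene symbol, 1 column a sample. Per the submitters' processing notes, the tools were HISAT2 2.1.0 and featureCounts 2.0.1 and the build GRCm38. The sources used here do not state the annotation release, strand setting or handling of multi-mapping reads. Without molecular identifiers, PCR copies are counted, and counting errors cover counting only.

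Levels are CPM over TMM-scaled sizes. The test was edgeR 4.0.16 in R 4.3.3 (filterByExpr, robust quasi-likelihood fit, cell type as the only term), tried on simulated counts first. DESeq2 1.42.0, limma-voom (limma 3.58.1), RLE and upper-quartile scaling, no filter, a mean of at least 5 CPM, a replicate block, a term for library sets, the 3 matrix-bearing libraries alone and each library left out were the 15 alternatives. Correlations used log2 CPM with a prior count of 2. No 2 libraries agreed within counting noise.

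The members, 5 pathway lists and 12 marker lists were chosen with earlier results of these data known. Named genes are the members, up to 4 of each pathway list by p, up to 3 of each marker list by level, the 2 most correlated genes of a member, and Gzmb. Not all are printed. Ctsk and the 4 lower cargo genes were named outside this rule. Vamp7 had no row. Gene positions are GENCODE M21 and promoters RefSeq.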

Additional observations from a re-analysis of the deposited data

How the results depend on the processing

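Of the 10 granule genes, 0 passed edgeR's test with all libraries. Nkg7 passed in the 3 matrix-bearing libraries alone (1 gene) and DESeq2 called 2, Nkg7 and Unc13d. With single libraries left out the count ran from 0 to 1 (Nkg7, without NK replicate 3). Over all genes, 11 were called higher and 1 lower; these counts were 47 and 91 with no filter, 956 and 935 in the 3 libraries alone, and 426 and 584 by DESeq2. The count called lower was 2 with a mean of at least 5 CPM, 2 by limma-voom and 17 with library sets as a term. With single libraries left out they ran from 0 to 250 higher and 0 to 199 lower, and no gene passed when replicate 1 or 2 of either cell type was left out (1266 to 2026 genes at an unadjusted p under 0.05). Docking and fusion genes, 0 called at first, had 1 with no filter, 4 in the 3 libraries, 4 by DESeq2, and 0 to 2 with a library left out. Biogenesis genes had 1 and 4, cathepsins 4 and 4 and serpins 3 and 1 in the 3 libraries and by DESeq2, and cathepsins 0 to 1 with a library left out. Cargo genes, 3 at first, had 6 with library sets, 7 in the 3 libraries, 7 by DESeq2, and 0 to 6 with a library left out.

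Signs changed for 4 of the 10 genes. With library sets as a term and in the 3 libraries alone, the log2 fold change was -0.12 and -0.16 for Srgn, 0.20 and 0.16 for Cst7, and -0.0016 and -0.042 for Ctsc, and with no filter it was 0.010 for Cst7. With single libraries left out it ran from -0.30 to 1.03 for Srgn, -0.16 to 2.68 for Ctsc, -0.15 to 0.070 for Cst7 and -0.027 to 0.21 for Rab27a. Nkg7, Unc13d, Ctsw, Stx11, Serpinb9 and Lamp1 kept their sign under all 15 alternatives. The causes were not tested, other than that leaving out ILC1 replicate 3 removes the high values of Srgn and Ctsc.

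The sources used here do not say whether same-numbered samples were paired. Same-numbered libraries had deviations from their group means correlated at -0.36, -0.36 and -0.56. These values cannot decide it, because ILC1 replicate 3 and NK replicate 3 each stood apart from their group and weigh on all deviations. With the replicate block edgeR called 0 genes in either direction (1584 at an unadjusted p under 0.05), 0 of the cargo list among them, and the log2 fold change was 0.92 for Ctsc and -0.95 for Nkg7.

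The 3-library fit has 1 NK library and takes its spread from the close ILC1 replicates 1 and 2, so its calls are no independent support. With library sets as a term, the cell type difference rests on the same 3 libraries, because each other set holds a single cell type. That fit is therefore no separate comparison of all 6 libraries. No gene's failure to pass shows equal levels.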

Other observations

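A cathepsin outside the naming rule, Ctsk, was picked out after its values were seen. It encodes cathepsin K, known from osteoclasts, and was at 0.779, 0.974 and 6.78 CPM in ILC1 replicates 1 to 3, against 430.5, 81.8 and 1.105 CPM in NK replicates 1 to 3. NK replicates 1 and 2 were high and NK replicate 3 was at the level of the ILC1s. DESeq2 called it lower in ILC1s, and edgeR's adjusted p was 0.286. Tpsb2, a mast cell tryptase gene that did not pass the filter for testing, had 0, 0 and 0.058 CPM in ILC1 replicates 1 to 3. It had 18.7, 4.31 and 0 CPM in NK replicates 1 to 3. The mast cell and basophil markers other than Tpsb2, Hdc and Kit had their highest sum in NK replicate 1, then in NK replicate 2. Hdc and Kit did not share the pattern of Tpsb2, since every ILC1 library also held them. Hdc was at 11.9, 7.31 and 7.48 CPM in ILC1 replicates 1 to 3, against 61.0, 7.29 and 13.1 CPM in NK replicates 1 to 3. Kit was at 107, 85.6 and 76.1 CPM in ILC1 replicates 1 to 3, against 119, 110 and 77.3 CPM in NK replicates 1 to 3. The part of mast cell RNA in the Srgn and Ctsc levels of the NK libraries was not tested.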
